A study of Mus musculus with 30 samples.

Results

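Retsat, Slc22a5, Entpd5, Inf2, Tmem98, Tmem120a, Lpl and Raet1e are 8 genes, of 12188 named genes tested, whose liver RNA level differed among 3 runs of neighbouring animal numbers within the control mice. They were chosen by a moderated F test over the control runs (limma, adjusted p below 0.05), so their control values are given here as a description. What the choice did not use is the same run pattern in the exposed mice, the difference between exposed and control mice, and the dye channels of the exposed arrays. All 8 genes were found through the RefSeq transcript of their probes and all were tested. They have 10 probes, 2 each for Slc22a5 and Lpl, and for these 2 genes the probe with the brighter liver signal stands for the gene unless the other is named. No probe was saturated on any array, and Cy5 was well above background on 30 of 30 arrays for every probe except that of Raet1e, with 29.

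Liver RNA of 14 exposed and 16 control mice was measured, with 1 array of 2 colours per mouse. All were female C57BL/6 mice bought at 5 to 6 weeks of age. Exposed mice had been instilled in the trachea with 0.162 mg of the carbon black nanoparticle Printex 90, suspended in 40 µl of saline with lavage fluid of C57BL/6 mice and followed by 150 µl of air. Control mice carry the treatment label none, and the labels do not say whether they were given the vehicle. The arrays outnumber the 6 mice a group that the design text gives. Liver RNA was labelled with Cy5 and a universal mouse reference RNA with Cy3 on every array, so each value is a log2 ratio of liver over reference RNA. No dye was swapped, and a level of one probe cannot be set against that of another.

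The exposed mice fell into run 1 (animals 176 to 180, 4 arrays), run 2 (193 to 197, 5 arrays) and run 3 (212 to 216, 5 arrays). The control mice fell into run 1 (547 to 552, 6 arrays), run 2 (570 to 575, 5 arrays) and run 3 (595 to 600, 5 arrays). What a run stands for is not in the labels, so runs of the same number are matched across the groups only by the order of the numbers. The arrays lay on 9 slides, with exposed mice at positions 3 and 4 and control mice at positions 1 and 2. In both groups every run 1 animal held the first place of its pair on a slide and every run 3 animal the last, while run 2 had 2 animals in the first and 3 in the last place. Run 1 against run 3 and place therefore cannot be told apart, and the same holds for group and slide position. Arrays had median Cy5 signals of 104 to 196, with Cy5 well above background at 42.8% to 79.2% of probes. All 7 hepatocyte markers on the array that were looked for were above background. In whole liver RNA, fewer cells of a type and less RNA per cell cannot be told apart.

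The members serve different tasks in a liver cell. Retsat reduces retinol in the endoplasmic reticulum, Slc22a5 carries carnitine, the shuttle molecule of fatty acid oxidation, into the cell, and Entpd5 removes a nucleotide product of the glycoprotein folding cycle. Inf2 is a formin that builds and severs actin filaments, and Tmem98 and Tmem120a are membrane proteins. Lpl hydrolyses the triglycerides of circulating lipoproteins and is made mainly by fat and muscle, with little in adult hepatocytes. Raet1e is a surface ligand of NKG2D, the activating receptor of natural killer cells.

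The run with the lowest mean was the same in exposed and control mice for all 8 members. Run 2 had the lowest mean in both groups for 7 of them, the exception being Lpl, which was lowest in run 3 in both groups. How often the lowest run matched over all probes was not counted, so this is a description. The F test over the exposed runs called 6 of the 8 members (Retsat, Slc22a5, Entpd5, Inf2, Tmem98 and Raet1e), in a comparison that called 4.13% of all 23607 probes tested. Tmem120a had an adjusted p of 0.0597 and Lpl one of 0.296. The control test that chose the members called 0.089% of probes, 21 in all. Of the other 11 probes it called, 7 also passed in the exposed runs. Inf2 lost its call without any 1 of 6 exposed animals and Tmem98 without any 1 of 7. The fit takes 1 spread per probe over all 30 arrays, including the controls. In a fit of the 14 exposed arrays alone, chosen after seeing the data, 5 members passed, with Tmem98 at an adjusted p of 0.0687, while 3.44% of all probes were called.

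**Figure D1:**
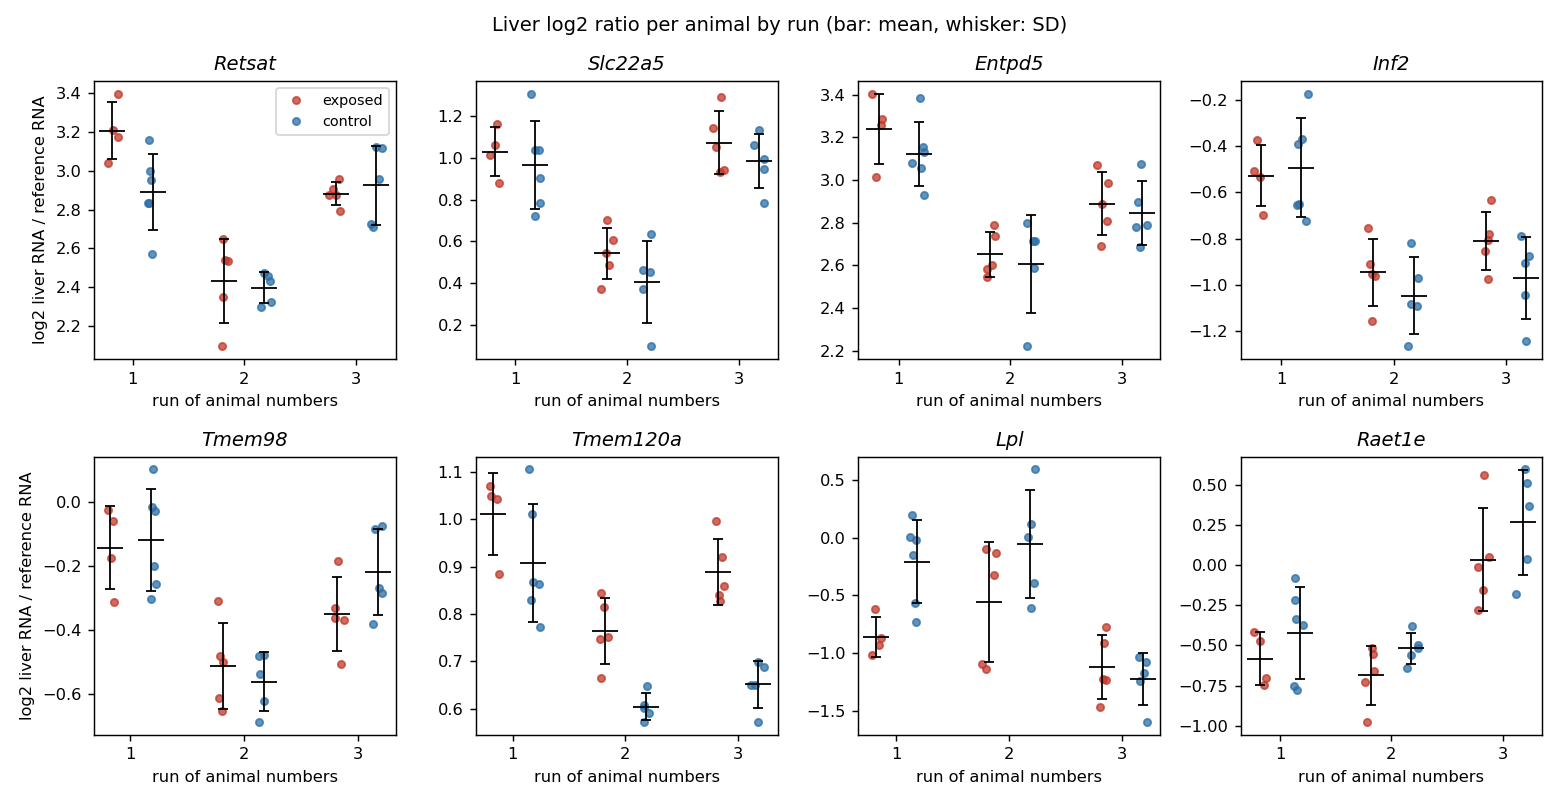
Log2 ratio of liver over reference RNA (y axis) for each animal by run of animal numbers (x axis), with exposed mice in red to the left and control mice in blue to the right of each run; black bars are means and whiskers SDs. Run 2 has the lowest mean in both groups in every panel except that of Lpl, where run 3 does. For Raet1e run 3 has the highest mean in both groups, and overlaps run 1 in controls.

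Retsat, retinol saturase, had log2 ratios of 3.21, 3.40, 3.04 and 3.17 in exposed run 1, 2.09, 2.65, 2.54, 2.35 and 2.54 in exposed run 2, and 2.87, 2.96, 2.87, 2.91 and 2.79 in exposed run 3. In controls it lay between 2.57 and 3.16 in run 1 (median 2.89), at 2.46, 2.30, 2.48, 2.32 and 2.43 in run 2, and at 2.96, 3.12, 2.71, 2.72 and 3.12 in run 3. No 2 exposed runs overlapped, and in controls run 2 lay below both other runs, which overlapped each other. Retsat was higher in exposed run 1 than in exposed run 2 by 0.79 ± 0.11 on the log2 scale (SE; limma, adjusted p = 0.000243). The F test over the exposed runs gave an adjusted p of 0.000619. The control difference between runs 1 and 2 was 0.50.

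Slc22a5, the carnitine transporter, had log2 ratios of 1.06, 1.01, 1.16 and 0.88 in exposed run 1, 0.49, 0.61, 0.37, 0.70 and 0.54 in exposed run 2, and 1.14, 1.29, 0.94, 0.93 and 1.05 in exposed run 3. Its control values lay between 0.72 and 1.31 in run 1 (median 0.97), at 0.45, 0.64, 0.46, 0.10 and 0.37 in run 2, and at 1.06, 0.79, 0.99, 0.95 and 1.13 in run 3. In both groups every run 2 animal lay below every animal of runs 1 and 3, and runs 1 and 3 overlapped. The exposed difference of run 2 from run 3 was -0.52 ± 0.10 (limma, adjusted p = 0.0491), beside -0.57 in controls. The second Slc22a5 probe, which lies on the same transcript and is no independent gene, had an exposed difference of -0.48 ± 0.07 (limma, adjusted p = 0.00416), beside -0.42 in controls. The exposed F test called both probes, with adjusted p-values of 0.00473 and 0.000484.

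Entpd5, the nucleotidase of the glycoprotein folding cycle, had log2 ratios of 3.01, 3.40, 3.26 and 3.29 in exposed run 1, 2.74, 2.55, 2.58, 2.60 and 2.79 in exposed run 2, and 2.98, 3.07, 2.89, 2.81 and 2.69 in exposed run 3. In controls it lay between 2.93 and 3.38 in run 1 (median 3.11), at 2.72, 2.80, 2.59, 2.22 and 2.72 in run 2, and at 2.78, 2.79, 2.89, 3.07 and 2.69 in run 3. Runs 1 and 2 did not overlap in either group, and run 3 overlapped both. In exposed mice run 1 differed from run 2 by 0.57 ± 0.11 (limma, adjusted p = 0.00209), beside 0.50 in controls.

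Inf2, the formin, had log2 ratios of -0.70, -0.37, -0.53 and -0.51 in exposed run 1, -0.91, -1.15, -0.75, -0.96 and -0.95 in exposed run 2, and -0.78, -0.81, -0.85, -0.63 and -0.97 in exposed run 3. The control values of Inf2 lay between -0.72 and -0.17 in run 1 (median -0.52), at -0.82, -1.27, -1.08, -0.97 and -1.09 in run 2, and at -0.79, -1.04, -0.90, -0.87 and -1.24 in run 3. Runs 1 and 2 were apart in both groups, and run 1 stood clear of run 3 in controls but not in exposed mice. In exposed mice run 1 stood above run 2 by 0.45 ± 0.11 (limma, adjusted p = 0.0123), beside 0.55 in controls.

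Tmem98, a membrane protein that binds the transcription factor Myrf, had log2 ratios of -0.18, -0.31, -0.06 and -0.02 in exposed run 1, -0.50, -0.65, -0.31, -0.61 and -0.48 in exposed run 2, and -0.36, -0.33, -0.19, -0.37 and -0.51 in exposed run 3. In controls it lay between -0.30 and 0.10 in run 1 (median -0.12), at -0.48, -0.62, -0.54, -0.69 and -0.48 in run 2, and at -0.28, -0.09, -0.07, -0.27 and -0.38 in run 3. Control run 2 lay below both other control runs, whereas the exposed runs all overlapped, runs 1 and 2 by 1 animal each. Exposed run 1 was higher than exposed run 2 by 0.38 ± 0.09 (limma, adjusted p = 0.0129), beside 0.45 in controls.

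Tmem120a, a nuclear envelope protein needed for fat cell differentiation in mice, had log2 ratios of 0.88, 1.05, 1.07 and 1.04 in exposed run 1, 0.75, 0.75, 0.84, 0.81 and 0.66 in exposed run 2, and 0.92, 0.997, 0.86, 0.84 and 0.83 in exposed run 3. Tmem120a in controls lay between 0.77 and 1.11 in run 1 (median 0.87), at 0.59, 0.60, 0.65, 0.61 and 0.57 in run 2, and at 0.57, 0.65, 0.70, 0.69 and 0.65 in run 3. Run 1 stood above run 2 without overlap in both groups, and above run 3 without overlap only in controls. Exposed run 1 stood above exposed run 2 by 0.25 ± 0.07 (limma, adjusted p = 0.0228), beside 0.30 in controls. The F test over all 3 exposed runs did not pass.

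Lpl, lipoprotein lipase, had log2 ratios of -0.93, -0.61, -1.02 and -0.87 in exposed run 1, -1.10, -1.14, -0.13, -0.10 and -0.32 in exposed run 2, and -1.22, -1.23, -0.91, -1.46 and -0.77 in exposed run 3. Control values of Lpl lay between -0.73 and 0.20 in run 1 (median -0.09), at 0.12, 0.00, -0.39, -0.61 and 0.59 in run 2, and at -1.08, -1.17, -1.24, -1.60 and -1.04 in run 3. Every control animal of run 3 lay below every other control animal, whereas all 3 exposed runs overlapped at this probe. At the second Lpl probe, exposed run 1 lay above exposed run 3 without overlap, by 0.31, while the other exposed pairs overlapped. Exposed run 2 split into 3 animals above and 2 below all 4 animals of exposed run 1, an observation made after the values were seen. The exposed difference of run 2 from run 3 was 0.50 ± 0.21 (limma, adjusted p = 0.608), beside 1.11 in controls. The second Lpl probe gave 0.40 ± 0.18 in exposed mice (limma, adjusted p = 0.673), beside 0.92 in controls.

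Raet1e, the NKG2D ligand, had log2 ratios of -0.42, -0.70, -0.47 and -0.75 in exposed run 1, -0.51, -0.55, -0.73, -0.98 and -0.66 in exposed run 2, and 0.56, -0.28, 0.05, -0.01 and -0.15 in exposed run 3. In controls it lay between -0.78 and -0.08 in run 1 (median -0.35), at -0.64, -0.38, -0.56, -0.50 and -0.51 in run 2, and at 0.51, 0.59, 0.04, 0.37 and -0.18 in run 3. Run 3 stood above both other runs without overlap in exposed mice, and above run 2 but not all of run 1 in controls. The exposed difference of run 2 from run 3 was -0.70 ± 0.15 (limma, adjusted p = 0.0921), beside -0.77 in controls. The exposed difference of run 1 from run 3 was -0.63 ± 0.16 (limma, adjusted p = 0.0296), beside -0.67 in controls. That exposed comparison called 1.98% of all probes, with run 1 higher for 0.724% and lower for 1.25%, and Raet1e was the only member it called. Raet1e belongs to a family of near-identical genes, so its probe may also bind RNA of the others.

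For each member, the pair of runs furthest apart in controls was then read in the exposed mice. The difference had the control direction for 8 of 8 members and for 10 of 10 probes, and 5 members passed the test (Slc22a5, Entpd5, Inf2, Tmem98 and Tmem120a). The share of all probes that kept the control direction was not counted. Several members varied together, so the 8 of 8 is a description. In exposed mice, run 1 against run 2 called 5.94% of all probes, with run 1 higher for 1.53% and lower for 4.41%, and the 4 members compared there, Entpd5, Inf2, Tmem98 and Tmem120a, all passed in that direction. Run 2 against run 3 called 0.0339% of all probes in exposed mice, with run 2 lower for 0.0212% and higher for 0.0127%. Of the 4 members compared there, Slc22a5 passed and Retsat, Raet1e and Lpl did not. Slc22a5 passed narrowly and lost the call without any 1 of 22 animals, with adjusted p-values up to 0.254, and Tmem120a lost it without exposed animal 177, 179, 180 or 197. The count was 3 without exposed animal 177, 179 or 197, and 3 in the fit of exposed arrays alone, where Slc22a5 (adjusted p = 0.0580) and Tmem120a (0.0538) dropped out. That fit called 6.49% of all probes for run 1 against run 2 and 0.0127% for run 2 against run 3.

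**Figure D2:**
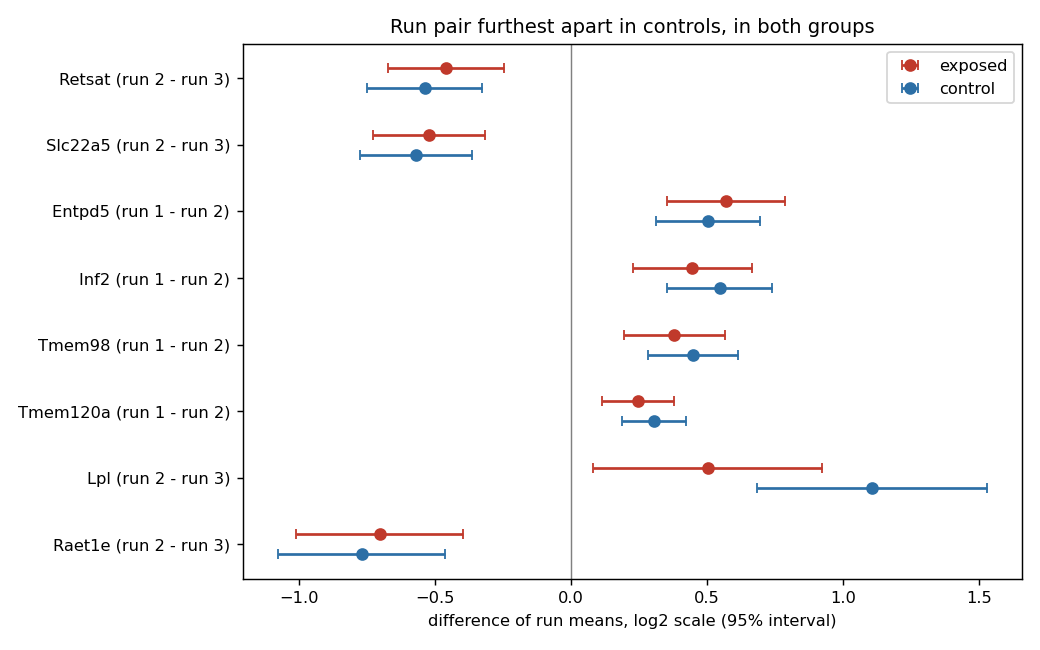
Difference of the run means (x axis, log2 scale, with 95% intervals of the limma fit) for the pair of runs furthest apart in controls, per member (y axis), with exposed mice in red above control mice in blue. Both groups lie on the same side of 0 for all 8 members, and the intervals overlap for each. The control values chose the pair.

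Whether the run pattern was the same in both groups was tested as an interaction of run and group. Its control side is the contrast that chose the members, so it is not independent of the choice. The interaction called 0 of 23607 probes (limma; 0% of probes, with 1853 at an unadjusted p under 0.05). None of the 8 members passed (adjusted p of 0.623 or more), and 2 of 8 had an unadjusted p under 0.05, Retsat with 0.0408 and Lpl with 0.0410. A miss of the threshold does not show that the patterns are the same, and the intervals say how far apart they could be. For Lpl the exposed difference of run 2 from run 3 lay below the control one by a contrast of -0.60 (95% interval -1.18 to -0.03). It did not pass (limma, adjusted p = 0.9997), and the interval of the second Lpl probe, -1.03 to 0.003, held 0. Each pair was the widest in controls, so its control side was picked to be large. For the other 7 members the interval of the contrast in their own pair held 0. Its reach was -0.22 to 0.35 for Entpd5, -0.38 to 0.18 for Inf2, -0.31 to 0.17 for Tmem98 and -0.23 to 0.11 for Tmem120a. It was -0.23 to 0.33 for Slc22a5, -0.21 to 0.37 for Retsat and -0.35 to 0.48 for Raet1e. In Retsat another pair of runs, not the one chosen from controls, had an interval clear of 0 but did not pass the test. Run 1 stood above run 3 by 0.33 ± 0.11 in exposed mice, beside -0.04 ± 0.10 in controls, a contrast of 0.37 (95% interval 0.07 to 0.67; limma, adjusted p = 0.548).

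Averaged over the runs, 1 of 8 members differed between exposed and control mice, in a comparison that called 0.275% of all probes, 0.203% as higher and 0.072% as lower. Tmem120a was higher in exposed mice by 0.17 ± 0.03 on the log2 scale (limma, adjusted p = 0.0474), with a mean log2 ratio of 0.88 ± 0.12 in exposed mice (SD, n = 14) and 0.73 ± 0.16 in control mice (SD, n = 16). By run, the difference was 0.11 ± 0.06 in run 1, 0.16 ± 0.06 in run 2 and 0.24 ± 0.06 in run 3 (SE). In run 3 every exposed animal lay above every control animal, and in run 2 likewise. These by-run differences use the control run levels that chose the gene, so they are a description. The call was lost without any 1 of 20 animals, with adjusted p-values between 0.0521 and 0.0891, and under 8 other settings given in the closing section.

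Lpl averaged -0.84 ± 0.42 in exposed mice (SD, n = 14) and -0.48 ± 0.62 in control mice (SD, n = 16), and the difference of -0.32 ± 0.12 did not pass (limma, adjusted p = 0.204). By run, likewise as a description, it was -0.59 ± 0.21 in run 1, -0.49 ± 0.20 in run 2 and 0.11 ± 0.20 in run 3. All 4 exposed animals of run 1 but 1 (animal 177) lay below every control animal of that run. The second Lpl probe had a difference of -0.31 ± 0.11 (limma, adjusted p = 0.177). Raet1e differed by -0.18 ± 0.09 (adjusted p = 0.328), Retsat by 0.11 ± 0.06 (0.440), Slc22a5 by 0.10 ± 0.06 (0.455), Inf2 by 0.07 ± 0.06 (0.599), Entpd5 by 0.07 ± 0.06 (0.635) and Tmem98 by -0.03 ± 0.05 (0.830). Each of these differences is smaller than the span of the run means within either group.

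Since run and array place were tied, run 2 was read by place. Its first-place and last-place means were 2.59 and 2.33 for Retsat in exposed mice and 2.31 and 2.46 in controls, each below the means of runs 1 and 3 in its group. For Slc22a5 they were 0.57 and 0.52 in exposed mice and 0.37 and 0.43 in controls. For Entpd5 they were 2.67 and 2.64 in exposed mice and 2.51 and 2.67 in controls. For these genes the low level of run 2 was seen in both places. Within a slide, where both arrays shared slide and scan, run 2 lay below run 3 on 2 of 2 slides in exposed mice for each member except Lpl, and on 2 of 2 slides in controls for each member except Lpl and Entpd5. Run 1 lay above run 2 on 3 of 3 slides in controls for the 6 members other than Lpl and Raet1e. Only 1 slide held runs 1 and 2 of exposed mice, with differences of 1.08 for Retsat, 0.39 for Slc22a5, 0.55 for Entpd5, 0.40 for Inf2, 0.48 for Tmem98 and 0.30 for Tmem120a. In each of these slide pairs the lower-numbered run held the first place, so within a slide run and place cannot be told apart.

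The dyes were also read apart, since every array held the same reference RNA in Cy3. The F test over exposed runs on the Cy5 intensity alone called 4 of 8 members (Retsat, Slc22a5, Entpd5 and Raet1e), in a test that called 1.68% of probes. On the Cy3 intensity alone it called 0 of 8 members, while 4 probes (0.0169%) passed and Retsat had an unadjusted p of 0.000159 (limma, adjusted p = 0.470). For Retsat, the mean log2 Cy5 intensity was 13.2, 11.8 and 12.4 over runs 1, 2 and 3 of exposed mice, beside 12.6, 11.8 and 12.4 over those of control mice. Its Cy3 intensity was 9.96, 9.32 and 9.48 in the exposed runs and 9.70, 9.37 and 9.51 in the control runs. The reference signal of Retsat thus moved with the liver signal, by less. For Raet1e, Cy5 was 6.92, 6.85 and 7.51 in the exposed runs and 7.05, 6.89 and 7.84 in the control runs, while Cy3 was 7.50, 7.53 and 7.48 in the exposed runs and 7.47, 7.41 and 7.58 in the control runs. The Cy3 mean was lowest in run 2 in both groups for Slc22a5 and Tmem120a as well, at 7.93, 7.72 and 7.79 over the exposed runs and 7.84, 7.71 and 7.85 over the control runs for Slc22a5. For Tmem120a it was 10.78, 10.65 and 10.66 over the exposed runs and 10.71, 10.62 and 10.83 over the control runs. The part of the reference signal in these run patterns was not tested.

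**Figure D3:**
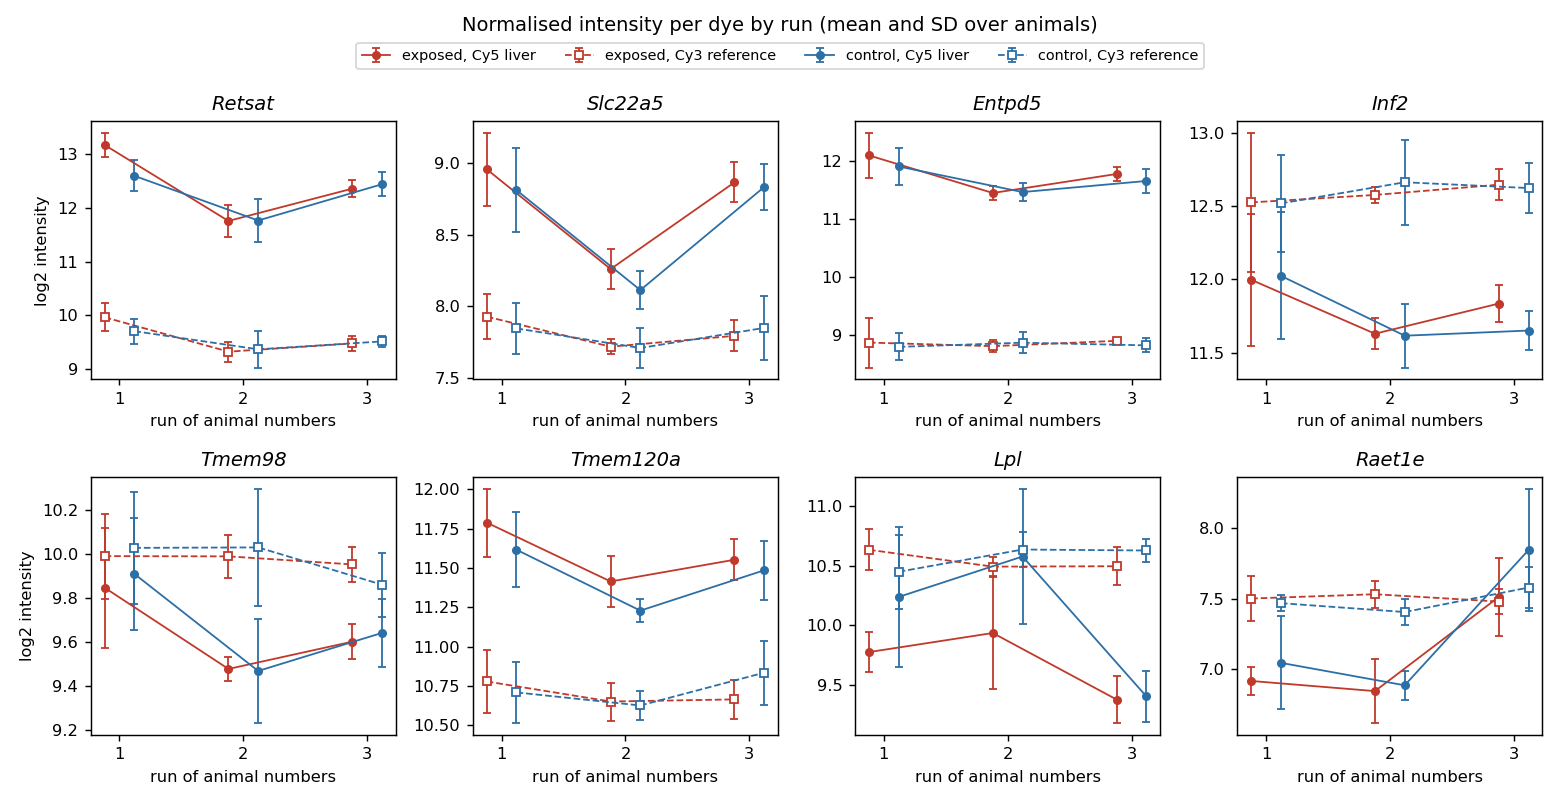
Mean normalised log2 intensity (y axis) with SD over animals, by run (x axis), for liver RNA in Cy5 (filled circles, solid lines) and reference RNA in Cy3 (open squares, dashed lines), with exposed mice in red and control mice in blue. The liver signal is lowest in run 2 or, for Lpl, in run 3, and its run means span more than those of the reference signal; for Retsat, Slc22a5 and Tmem120a the reference signal is also lowest in run 2 in both groups.

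Among themselves most members formed a block, and Lpl and Raet1e followed it less closely. Over the 30 arrays, log2 ratios of Retsat, Slc22a5, Entpd5, Inf2, Tmem98 and Tmem120a correlated with one another at r between 0.41 (Slc22a5 with Inf2) and 0.76 (Inf2 with Tmem120a). Retsat and Slc22a5 correlated at r = 0.74. Lpl and Raet1e correlated at r = -0.55, and Lpl with Retsat at -0.27. Raet1e correlated with Slc22a5 at 0.38, near the lowest value inside the block, and with Tmem120a at -0.27. After the mean of each run and group was taken away, the correlations within the block lay between -0.16 and 0.48, with Retsat and Slc22a5 at 0.14. These points share slides and a reference RNA, and the members were chosen for varying between runs, so the values are a description.

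Upstream sequences are shown for 4 of the 6 genes of the block, Retsat and Slc22a5 for their roles in retinoid and lipid handling and Inf2 and Tmem98 because they share a motif. RefSeq promoters (build GRCm38.p6) matched 7 of 8 members, and the 250 bases before the start of transcription were searched on both strands for AGGTCA, which many nuclear receptors bind, for AGGTCA repeated after 1 base of any kind, for CACGTG, an E-box that reads the same on both strands, and for TATAAA. The motif AGGTCA stood in 0 of 7 members and in 13.8% of 27025 promoters, and the spaced repeat, which also counts as AGGTCA, in 0 of 7 and 0.037%. CACGTG stood in 2 of 7 members, Inf2 and Tmem98, and in 6.05% of promoters. TATAAA stood in 1 of 7, Retsat, and in 3504 of the 27025 promoters. Capitals mark CACGTG or TATAAA, which begin 30 bases before the start in Retsat, 46 in Inf2 and 184 in Tmem98. Slc22a5 holds neither. Retsat lies at chr6:72598352-72598601 on the plus strand, Slc22a5 at chr11:53891704-53891953 on the minus strand, Inf2 at chr12:112588517-112588766 on the plus strand and Tmem98 at chr11:80810116-80810365 on the plus strand.
Retsat: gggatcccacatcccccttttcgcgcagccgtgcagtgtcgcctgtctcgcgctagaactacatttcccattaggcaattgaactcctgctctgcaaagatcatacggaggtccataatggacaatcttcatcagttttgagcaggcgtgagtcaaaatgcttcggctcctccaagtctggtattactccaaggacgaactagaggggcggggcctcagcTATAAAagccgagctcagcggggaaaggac
Slc22a5: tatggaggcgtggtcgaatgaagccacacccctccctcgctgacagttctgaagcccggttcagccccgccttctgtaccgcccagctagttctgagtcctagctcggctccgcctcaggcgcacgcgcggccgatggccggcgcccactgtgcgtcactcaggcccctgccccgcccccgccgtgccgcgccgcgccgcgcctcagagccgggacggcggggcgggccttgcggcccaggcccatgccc
Inf2: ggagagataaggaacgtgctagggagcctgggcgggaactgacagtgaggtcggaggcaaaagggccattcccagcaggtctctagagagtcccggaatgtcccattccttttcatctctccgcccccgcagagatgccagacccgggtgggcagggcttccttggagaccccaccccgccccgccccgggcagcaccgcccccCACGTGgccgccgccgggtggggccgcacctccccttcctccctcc
Tmem98: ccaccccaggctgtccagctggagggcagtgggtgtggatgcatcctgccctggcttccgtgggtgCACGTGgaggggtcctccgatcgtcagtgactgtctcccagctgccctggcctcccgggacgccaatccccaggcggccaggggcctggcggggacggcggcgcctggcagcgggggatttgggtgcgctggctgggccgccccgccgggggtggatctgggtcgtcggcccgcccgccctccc
A match is a stretch of letters in this window, and its absence says nothing of a factor.

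The named genes outside the 8 whose log2 ratios followed a member most closely over the 30 arrays were found by Pearson's r, as a description. Retsat was followed by Ech1, an enzyme of fatty acid oxidation (r = 0.85), and Cyp4a12a, a fatty acid hydroxylase (0.78). Slc22a5 was followed by Ech1 (0.79) and Acadm, the medium-chain acyl-CoA dehydrogenase (0.77). Entpd5 was followed by Abcc3, an export pump for conjugated compounds (0.87), and Rassf7 (0.85). Inf2 was followed by Abcc3 (0.80) and Slc9a3r1, a scaffold protein (0.79), and Tmem98 by Abcc3 (0.72) and Clcn2, a chloride channel (0.72). Tmem120a was followed by Pgap6 (0.84) and Mafg, a small Maf transcription factor (0.82). Lpl was followed by Swap70 (0.76) and AF067063 (0.75), and Raet1e by Acad9 (0.74) and Acot1, an acyl-CoA thioesterase (0.67).

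Near the threshold of the choice, Ppp1r42 lay inside (adjusted p of the control F test 0.0382) without being one of the 8 members, and Abcc3 lay outside (0.0555). Entpd5, with an adjusted p of 0.0486, is the member nearest to the threshold. Abcc3 had run means of 3.71, 2.996 and 3.21 in exposed mice and 3.58, 3.03 and 3.16 in controls, again lowest in run 2.

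Lists of genes that share the members' pathways were read in the exposed runs, leaving out the members, beside 627 of 12180 named genes (5.15%) called by the same F test. A gene named as called passed that F test over 3 runs. The run difference given with it is a value, and that pair need not have passed its own test. Of the carnitine and fatty acid import genes, 2 of 12 were called. Slc22a21, a carnitine transporter near in family to Slc22a5, was higher in exposed run 1 than in run 2 by 0.35 ± 0.08 (limma, adjusted p = 0.0106), and Slc22a4 had a difference of run 2 from run 3 of -0.51 ± 0.12. Of the PPAR alpha targets, 3 of 24 were called (Acot1, Acsl1 and Acadm). Acot1 had a difference of exposed run 1 from run 3 of -1.34 ± 0.28, with its highest level in run 3 like Raet1e. Of the retinol genes, 3 of 16 were called. Aldh1a1, which oxidises retinal, was higher in exposed run 1 than in run 2 by 1.18 ± 0.13, whereas Ttr, a carrier of retinol-binding protein, and Bco1, which cleaves carotenoids, were lower in run 1 by 1.48 ± 0.31 and 0.81 ± 0.19.

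No gene was called among 16 partners of lipoprotein lipase, 13 genes of glycoprotein folding, 12 formin and actin genes, 3 partners of the Tmem proteins and 1 other gene of the NKG2D list. Among the lipase partners, Sel1l had an unadjusted p of 0.0133 (limma, adjusted p = 0.133). The lowest p-values were those of Mogs (unadjusted p = 0.00267, adjusted 0.0571) and Edem2 (0.00533 and 0.0815) in glycoprotein folding and of Fmnl3 (0.00907 and 0.110) and Cdc42 (0.0204 and 0.166) among the actin genes. Tmem120b, Frat2 and Hcst had unadjusted p-values of 0.158, 0.212 and 0.599.

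Genes of other liver lists were called by the F test over the exposed runs as well, and these lists too were drawn up with earlier results known. Run differences are again given as values, whether or not that pair passed its own test. Of 23 targets of the xenobiotic receptor CAR, 5 were called. Cyp2b10, Cyp2c55 and Aldh1a1 led, with differences of exposed run 1 from run 2 of 2.27 ± 0.33, 1.66 ± 0.28 and 1.18 ± 0.13, and the first 2 were also called in the control runs. Of the cholesterol synthesis genes, 9 of 23 were called, among them Cyp51 and Mvk with differences of run 1 from run 2 of 1.17 ± 0.18 and 0.93 ± 0.18. The median difference over this list was 0.68, beside -0.07 over all named genes. In the pooled comparison 6 of the 23 were higher in exposed than in control mice, with Lss at 0.70 ± 0.13 (limma, adjusted p = 0.0201) and Mvk at 0.51 ± 0.09 (0.0263). Of the fatty acid synthesis genes 4 of 18 were called, led by Scd1, Elovl5 and Fads2 with differences of run 1 from run 2 of -1.43 ± 0.25, -0.82 ± 0.16 and -0.37 ± 0.11. Of the clock genes, 2 of 18 were called, Cry2 (run 1 from run 2, 0.65 ± 0.13) and Nr1d1 (run 1 from run 3, -1.18 ± 0.30), and Tef was higher in exposed mice by 0.81 ± 0.18 (adjusted p = 0.0474). Of the glucocorticoid and fasting genes, 1 of 17 was called by the F test, Gadd45g, with 1.95 ± 0.51 for run 2 from run 3. That pair by itself called 0.0339% of all probes.

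Markers of other cells were set beside Lpl, which fat tissue makes in large amounts. Of 8 adipocyte markers, 3 were above background often enough to be tested. Lep was above background on 0 arrays and Adipoq on 3 of 30. Over the 3 tested markers the mean log2 ratio per animal ranged from 3.17 to 3.77 in exposed and from 2.93 to 3.97 in control mice. By run in their order, exposed mice averaged 3.34, 3.60 and 3.49 on this list and control mice 3.49, 3.54 and 3.59. Of these 3, Fabp4, a fatty acid binding protein of fat cells and macrophages, was called in the exposed F test, with a difference of run 1 from run 2 of -0.96. For Raet1e, the 6 tested lymphocyte markers had run means of -1.06, -0.81 and -0.9997 in exposed mice and -0.84, -0.60 and -0.85 in controls, with none called. The 3 lists of endothelial, stellate and Kupffer cells had their lowest exposed mean in run 1, where Retsat, Entpd5, Inf2, Tmem98 and Tmem120a had their highest. The adipocyte, bile duct, lymphocyte and pancreas lists were lowest there too, and the neutrophil, red cell and muscle lists in another run. The hepatocyte list was lowest in run 2 in both groups, at 5.33, 5.29 and 5.46 over the exposed runs and 5.43, 5.36 and 5.65 over the control runs. These gaps are small beside the spread of single animals on this list, 4.85 to 5.92 in exposed and 4.78 to 6.16 in control mice. Over runs 1, 2 and 3 the sinusoidal endothelium list averaged 2.63, 3.17 and 3.13 in exposed mice and 2.93, 3.06 and 2.93 in controls. The stellate cell and fibroblast list averaged -0.51, -0.04 and -0.16 in exposed mice and -0.19, -0.16 and -0.33 in controls. The Kupffer cell and macrophage list averaged 3.50, 3.77 and 3.81 in exposed mice and 3.74, 3.94 and 3.81 in controls. Besides Fabp4, the F test over exposed runs called 2 markers, Col3a1 of the fibroblast list and Ttr of the hepatocyte list. In the pooled comparison 1 marker passed, Sox9 of the bile duct list, which was lower in exposed mice with a difference of -0.45 (limma, adjusted p = 0.0474). The part of other cell types in the members' run pattern was not tested beyond these values.

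The count of members called in exposed mice moved with the way slide, place and dye normalisation were handled. With median centring in place of loess 1 of 8 members passed the exposed F test while 0.53% of all probes did. With slide as a fixed term 2 of 8 passed, beside 0.707% of probes, with place in the pair as a term 3 of 8, beside 0.695%, and without the 5 arrays read by the older scanner software 3 of 8, beside 1.66%. In each of these settings the direction of the chosen run difference stayed as reported for every member probe.

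**Figure D4:**
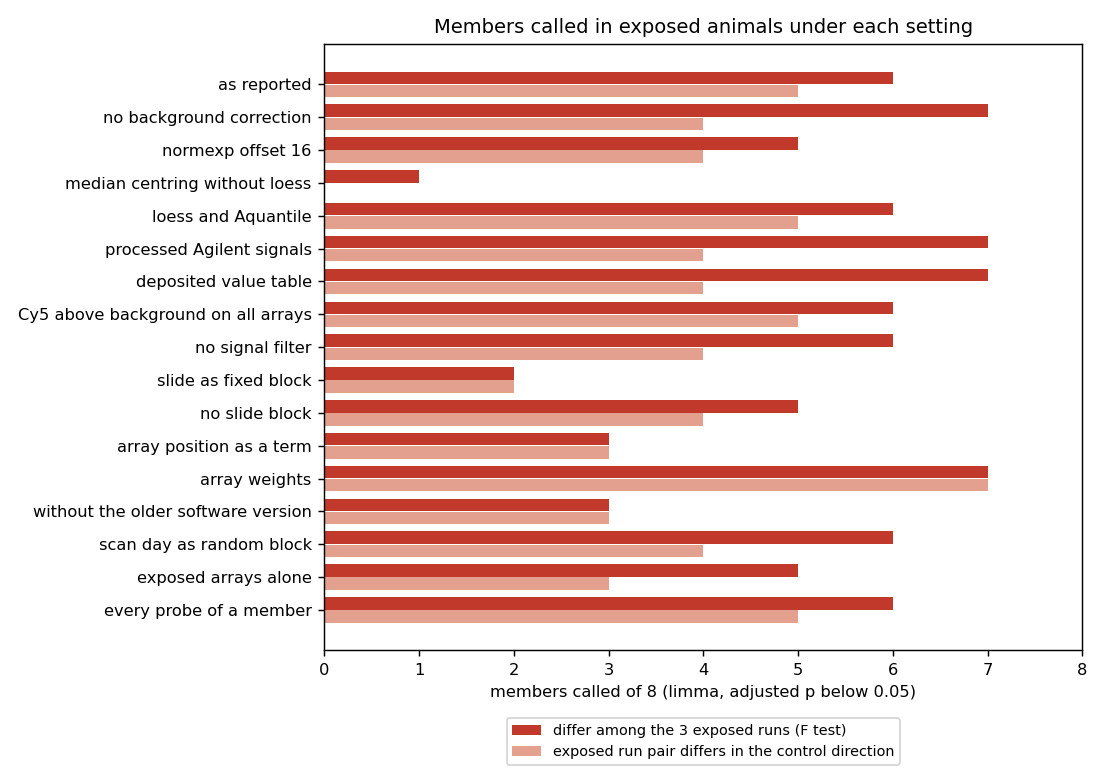
Number of the 8 members (x axis) that passed at an adjusted p below 0.05 in exposed mice under each setting (y axis), for the F test over the 3 exposed runs (dark bars) and for the run pair furthest apart in controls (light bars). As reported the counts are 6 and 5, and they are lowest under median centring, with 1 and 0.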

How the data were processed

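The deposited scanner files give the median intensity of each spot and its local background per dye, with a log10 ratio of Cy5 over Cy3 beside it, per the file headers. The authors used Agilent's Feature Extraction software, version 10.7.3.1 on 25 arrays and 10.1.1.1 on 5. The value table deposited by the authors holds log2 ratios of Cy5 over Cy3. Set against the scanner values, 30 of 30 columns matched their own array best (r of 0.980 to 0.993 over 15470 spots), with slopes of 0.837 to 0.928 and column medians of -0.045 to -0.021. How it was centred and filtered is not given in the sources used here, and it served as an alternative. Gene names are those of the RefSeq transcripts printed for the probes, matched to a table of build GRCm38.p6, and 3169 spot names differed between the versions of the array design.

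Background was corrected by normexp (offset 50) and ratios were normalised by loess within each array (R 4.3.3, limma 3.58.1, data.table version 1.17.8). Control spots had weight 0 in the loess, and 1008 probe values marked as outliers by the scanner software were left out. The test took probes whose Cy5 passed the scanner's background test on 14 or more of the 30 arrays, 23607 of 41174 probes. Each named gene is represented by its probe with the brightest mean Cy5. Runs were taken from the animal numbers in the labels. The fit had a mean for each of the 3 runs in each group, with slide as a random block (correlation 0.147), and gave moderated two-sided t statistics and F tests (limma, Benjamini-Hochberg over all tested probes, threshold 0.05). Exposed minus control is the difference of the averages of the 3 run means. The labels do not say that animals were housed or treated separately, so p-values measure the spread between these animals. Precision is limited by how many arrays there are. The fit was tested on simulated data. Alternatives were the background correction, the dye normalisation, the processed signals, the signal filter, slide, place, array weights, software version, every probe, and leaving out each animal, and, added after seeing the data, scan day as a block and the exposed arrays alone.

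The members, gene lists and marker lists were chosen with earlier results of these data known. Named genes are the 8 members, the 2 named genes nearest to the threshold on each side, the 2 genes with the highest r for each member, and up to 3 called genes of each list by smallest p, or 2 by smallest p where none was called. Some genes this rule names are not reported here.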

Additional observations from a re-analysis of the deposited data

Results flagged for a closer look

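In exposed run 1, animal 176 had a Tmem120a log2 ratio of 0.88, far below the other 3 animals of that run, which lay close together between 1.04 and 1.07. It was the only one of 48 sets of animals (8 members, 3 runs, 2 groups) in which the gap between the highest or lowest animal and its nearest neighbour was this large a share of the set's own range. Other sets held wider gaps on the log2 scale over wider ranges, and chance marks about 1 in 20 such sets. Without animal 176 the difference between exposed and control mice in Tmem120a still passed.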

How the results depend on the processing

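No result reversed under any alternative. Of the 8 members, 6 passed the F test over exposed runs, but 1 with median centring, 2 with slide as a fixed term, and 3 each with array place as a term and without the older software version. For the run pair furthest apart in controls 5 passed, but 0 with median centring, 2 with slide as a fixed term, and 3 each with array place as a term, without the older software version and with exposed arrays alone. Run 1 against run 2 called 0.648% of all probes with median centring, 0.919% with slide fixed, 1.14% with place and 1.63% without the older software. In the same order, run 2 against run 3 called 0.00424%, 0%, 0.0212% and 0%. In the pooled comparison 1 passed (Tmem120a), and 0 with an offset of 16, median centring, processed signals, slide as a fixed term, no slide block, array place as a term, without the older software version, and with scan day as a random block. The adjusted p of Tmem120a ran up to 0.971 over these. The cause was not tested. Scan day and exposed arrays alone were chosen after seeing the data. Leaving out each animal gave 4 to 7 members in the exposed F test, 3 to 6 in the run pair and 0 to 1 in the pooled comparison, and 0 to 0 in the interaction (limma), which called 0 members under every alternative run. The median range of the control run means was 0.54 for the ratio and 0.171 for Cy3 alone.

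Over all probes, the exposed F test called 976, but 125 with median centring, 167 with slide fixed, 164 with place, 391 without the older software and 1909 with array weights. The pooled comparison called 65, but 192 without background correction, 15 with an offset of 16, 24 with median centring, 43 with processed signals, 177 in the value table, 16 without a signal filter, 2 with slide fixed, 13 with no slide block, 14 each with place and scan day, 637 with array weights and 4 without the older software. Aquantile leaves ratios unchanged by construction. Raet1e was not tested where Cy5 had to be above background on all arrays. Cy5 of Raet1e was well above background on 29 of 30 arrays. No paired analysis was possible because the groups share no replicate numbers, and slide as a fixed term is the comparison within slides.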
